A study of Danio rerio with 2 samples.

Results

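The cells described here were erythroid cells of zebrafish whole kidney marrow (WKM) that carried transcripts of cell division genes, and they are called cycling erythroblasts below. They were 462 cell barcodes of the 10688 in the WKM library and of the 28534 in the series, or 5.56% of the 8313 WKM barcodes that passed the limits on quality. A barcode was taken when it had at least 500 detected features, under 10% of its unique molecular identifiers (UMIs, which count each captured RNA molecule once) from mitochondrial genes, at least 20% of its UMIs from adult globin genes whose symbols begin with hbaa or hbba, and at least 2 UMIs summed over mki67, top2a and cdk1. They were set beside the 346 erythroid barcodes within the same limits that had 0 UMIs of the 3 genes, called 0-UMI erythroid cells, and beside 685 other cycling marrow cells, which had at least 2 UMIs of the 3 genes and under 20% globin. The remaining 117 erythroid barcodes had exactly 1 UMI.

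Kidney marrow is the blood-forming organ of adult zebrafish. It came from 2 adult male fish aged 6 months that carried the reporters Tg(lysC:CFP-NTR) and Tg(BACmmp9:Citrine-CAAX), which label neutrophils and mmp9-expressing cells, from lines kept on an AB* and a mixed AB*xSAT background. The WKM library held cells gated only for viability and against debris, while a further library held LysC+ neutrophils sorted by Mmp9 level (NO, INT and HI), and no treatment or mutant was part of either. Both fish, which the study indexed separately, were pooled in 1 WKM library. Barcodes were not assigned to fish here, so the library was used as 1 sample without replicates, no test was made, and the 95% intervals given below are exact and cover counting error only.

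In terminal erythropoiesis, committed progenitors go through a short series of divisions while they fill with hemoglobin, shrink their nucleoli and condense their chromatin. Before each division the MCM helicase and the sliding clamp PCNA copy the DNA in S phase, and cyclin B with Cdk1 then drives the cell through G2 into mitosis. Zebrafish red cells keep their nucleus after division stops. The roles of genes named below are those known in vertebrates, mostly from mammalian homologs.

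Globin RNA took a median 60.4% of the UMIs of a cycling erythroblast, with quartiles of 44.4% and 67.8% and a range of 20.4% to 74.8%. Cdk1 (ENSDARG00000087554), the kinase of mitotic entry, gave 1345 UMIs and was found in 91.1% of the 462 cells. Mki67 (ENSDARG00000091150), a coat protein of mitotic chromosomes, gave 990 UMIs and was found in 80.1%, and top2a (ENSDARG00000024488), the topoisomerase that untangles sister DNA, gave 416 UMIs and was found in 49.6%. All 3 genes were seen in 163 cells, mki67 together with cdk1 alone in 167, and cdk1 alone in 46. The limit of 2 UMIs fell in a populated range, because 94 cells had exactly 2 UMIs, 81 had 3 and 177 had at least 6. Cells with exactly 2 UMIs carried 2579 pcna and 14.2 ccnb1 UMIs per 1000000 non-globin UMIs (CPM), and those just outside with 1 UMI carried 2447 and 30.7. At the globin limit, the 10 cycling barcodes with 18 to 20% globin carried 1562 CPM of slc4a1a and 4529 CPM of lyz, and the 5 with 20 to 22% carried 1445 and 29919.

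**Figure D1:**
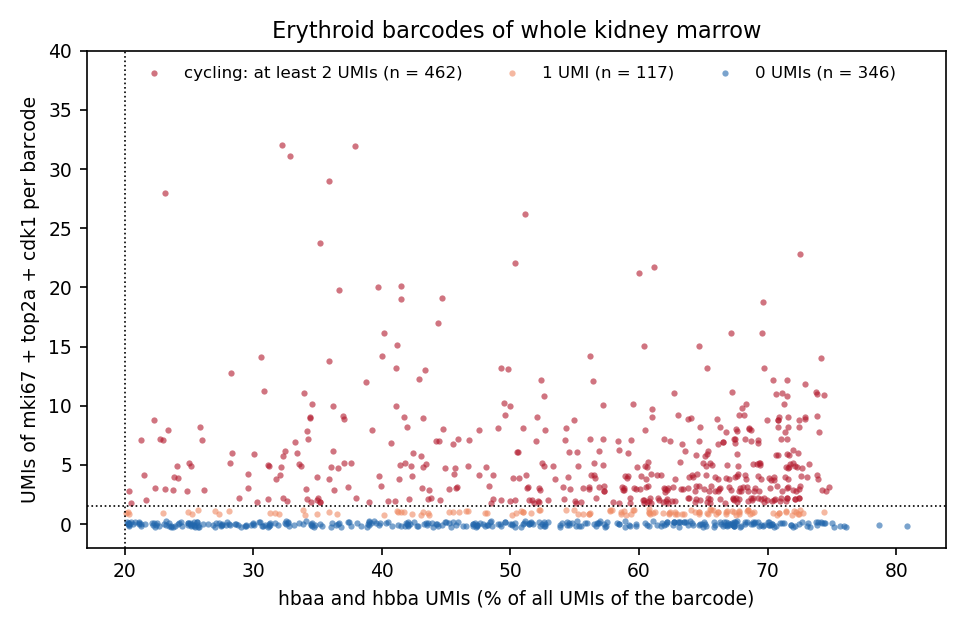
Each point is 1 erythroid barcode of whole kidney marrow, with the share of its UMIs from hbaa and hbba genes on the horizontal axis (in %) and the summed UMIs of mki67, top2a and cdk1 on the vertical axis (points are spread slightly for visibility). Dotted lines mark the limits of 20% globin and of 2 UMIs, and the 462 cycling cells lie above a dense band of 117 cells with 1 UMI and 346 with 0.

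Cycling erythroblasts were deeper than 0-UMI erythroid cells, and had fewer non-globin UMIs than other cycling marrow cells. Their median was 9183 UMIs, 2966.5 non-globin UMIs and 923.5 features, against 6337.5 UMIs, 2382.5 non-globin UMIs and 810.0 features in 0-UMI erythroid cells and 8407 UMIs, 8228 non-globin UMIs and 1751 features in other cycling marrow cells. A deeper cell reaches 2 UMIs more easily. Shares of cells that reach a number of UMIs of the 3 genes, or of the S and G2/M lists, are therefore also given after thinning. This thinned every barcode to 1000 non-globin UMIs and left out 10 of the 462 cells. Shares of cells with a marker or globin UMI, or with more G2/M than S UMIs, are as counted and not matched for depth. The WKM library held a median of 2770 UMIs per barcode, it shared 62 barcode sequences with the sorted library, 2 of them cycling erythroblasts, and 1 sorted barcode met the whole rule. A further 1383 WKM barcodes had at least 20% globin but under 500 features, of which 14 had at least 2 UMIs of the 3 genes, and they were not analysed here.

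The erythroid label held on genes that the rule did not use. The 10 measured non-globin erythroid markers (slc4a1a, alas2, gata1a, epb41b, sptb, hemgn, cahz, tfr1a, klf1 and epor) summed to 17840 CPM in the cycling erythroblasts and to 586 in other cycling marrow cells. Markers of B cells summed to 2.05 CPM and those of T and NK cells to 1.54, with cd79b, lck, cd4-1, cd8a and il2rb at 0. Thrombocyte markers summed to 163 CPM, all of it from gp1bb, since itga2b, thbs1b, mpl and fn1b were at 0 in the cycling erythroblasts. A UMI of these 5 markers was found in 46.1% of the cycling erythroblasts, 43.4% of 0-UMI cells and 12.4% of other cycling marrow cells, with 2 of the markers detected in the 0-UMI cells and 4 in the other cycling marrow cells. Kidney tubule markers summed to 76.8 CPM, with a UMI in 28.6%, 21.1% and 3.94% of these groups as counted. In the cycling erythroblasts the phosphate carrier slc20a1a gave 75.8 of this sum, and slc12a3 and pax2a were at 0. Monocyte or macrophage markers summed to 177, and progenitor (HSPC) markers, which include the erythroid genes tal1 and lmo2, to 735 with egfl7 at 0. Neutrophil RNA was present, as 7 of 7 measured neutrophil markers were detected and summed to 15943 CPM, against 32288 in 0-UMI erythroid cells and 82899 in other cycling marrow cells. It was concentrated in few barcodes, since 47 of the 462 cells had over 1% of their non-globin UMIs from lyz, mpx, npsn, lect2l, mmp13a.1 and cpa5 and held 93.6% of these UMIs. Among the 0-UMI cells 88 of 346 were over this limit and held 97.6%. Scrublet called 22 of the 462 cells doublets (4.76%), 19 of them among those 47, and 8 of the 346 (2.31%). It called 122 of the 8313 WKM barcodes within the limits (1.47%) and 7 of the 685 other cycling marrow cells (1.02%). Several results that moved without the barcodes over 1%, called rich in neutrophil RNA below, are given with and without them. Whether the neutrophil RNA was free or came from joined cells was not tested.

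Adult globins made up nearly all globin RNA. In the cycling erythroblasts the alpha globin hbaa1 held 22.9% of all UMIs and hbaa2 3.31%, while of the beta globins the copies annotated as hbba1 held 16.1% (ENSDARG00000089087) and 6.17% (ENSDARG00000097238), and hbba2 held 5.01%. The gene si:ch211-5k11.8, for which RefSeq lists the synonym hbaa1.2 and which was counted with the alpha globins, held 4.38%. Near-identical globin copies can share reads, so their split is uncertain. Alpha globins were 53.0% of globin UMIs in the cycling cells and 52.8% in the 0-UMI cells, and per cycling cell the middle of the distribution ran from 51.5% to 54.9%. Embryonic globins were found at low levels, with hbae1.3 (ENSDARG00000088330) at 0.0882% of UMIs and a UMI in 71.9% of cycling cells, hbbe1.3 at 0.0323% and hbae3 at 0. A further copy annotated as hbae1.3 (ENSDARG00000089124) was at 0.0358%, with a UMI in 57.1%. In 0-UMI cells these copies were found in 51.2% and 36.4%. In marrow barcodes with under 20% globin, which were shallower at a median of 2967.5 UMIs, the first copy was found in 10.0%, at 0.00268% of UMIs.

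Mitotic genes set the cycling erythroblasts apart from 0-UMI erythroid cells most widely. For every gene, UMIs were summed over the cells of a group and scaled to CPM, and genes with at least 100 UMIs over both groups were compared by their ratio. Of 2559 genes, 226 (8.83%) were at least 2-fold higher and 157 (6.14%) at least 2-fold lower in the cycling cells, with a median log2 ratio of 0.05. The contrast is the one that the rule drew, so its values are a description. All 51 measured genes of the G2/M list, which leaves out the 3 genes of the rule, were at least 2-fold higher, with a median log2 ratio of 3.50, and this count was also 46 of 46 without the barcodes rich in neutrophil RNA.

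The G2/M genes covered the successive steps of mitosis. Cyclin B1 (ccnb1), the partner of Cdk1, was at 162 CPM in cycling and 4.24 in 0-UMI cells, a log2 ratio of 5.26 (4.02 to 6.89). The mitotic kinase plk1 stood at 173 against 3.39 (log2 5.67), and aurkb, the catalytic subunit of the chromosomal passenger complex, at 276 against 35.6 (2.95). The spindle pole kinase aurka had 189 UMIs in cycling cells and 0 in the 0-UMI cells, which at a floor of 3 UMIs over the group was at least 38.1-fold higher. Of the genes for separating the chromosomes and splitting the cell, the midzone protein prc1a was at 116 against 1.70 (log2 6.10, 4.23 to 9.15), the kinesin kif23 at 113 against 2.54 (5.47), and ube2c, which loads ubiquitin onto targets of the anaphase-promoting complex, at 373 against 11.9 (4.98). The activator of that complex, cdc20, was at 118 against 8.48 (3.80). The highest ratio belonged to kpna2, an importin for nuclear cargo, at 194 against 1.70 (6.84, 4.98 to 9.89). Among the 10 highest ratios, si:ch211-69g19.2 (ENSDARG00000070656) was the one gene outside the list, at 427 against 5.09 (6.39).

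Genes of DNA replication went in both directions. Of 42 measured S phase genes, 2 were at least 2-fold higher and 8 at least 2-fold lower, with a median log2 ratio of -0.09. The median was 0.13 among cells with 20 to 60% globin and -0.57 at 60% or more, and with groups set after thinning it was -0.72, with 0 of 40 higher and 15 lower. The sliding clamp gene pcna was at 1378 CPM in cycling and 1426 in 0-UMI cells, a log2 ratio of -0.05 (-0.14 to 0.04). Genes of the helicase, which is loaded onto origins before replication starts, were lower from mcm2 to mcm6, with mcm2 at 75.3 against 308 (log2 -2.03, -2.32 to -1.75), mcm5 at 105 against 337 (-1.68) and the loader cdc6 at 18.4 against 71.2 (-1.95). The exception was mcm7, at 14.3 against 9.32, from 28 and 11 UMIs, which are below the minimum of 100. Genes that make deoxynucleotides were higher or within 2-fold, with thymidine kinase tk1 at 47.6 against 16.1 (1.56), and the ribonucleotide reductase gene rrm1 at 343 against 172 (0.996). The small subunit rrm2 is listed under more than 1 identifier, with log2 ratios of 1.33 and 0.92.

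The 0-UMI cells therefore did not lack replication transcripts. After thinning to 1000 non-globin UMIs, at least 3 UMIs of the S list were found in 69.9% of cycling erythroblasts, in 91.4% of erythroid cells with 1 UMI and in 66.3% of 0-UMI cells, against 11.1% of other marrow barcodes with 0 UMIs of the 3 genes at the same depth. At least 3 UMIs of the G2/M list were found in 85.0%, 64.7%, 16.0% and 0.618% of these groups. Neither list reached 3 UMIs in 7 of 452 thinned cycling cells (1.55%) and in 33.1% of the 0-UMI cells. The comparison was also limited to the 69 0-UMI cells that had 0 UMIs of pcna and of mcm2 to mcm7 as well, a choice made after seeing the data. The pcna and mcm genes must come out higher against such cells, so their ratios say nothing beyond the selection. Of the 22 other S phase genes measured, which tend to be found with them, 22 were at least 2-fold higher in the cycling cells. Over 1856 genes, 527 were higher and 279 lower. The 69 cells held 161299 non-globin UMIs against 1952648 in the cycling cells, so genes reached the minimum count mostly through the cycling cells. The result for the 22 genes therefore says little beyond the selection. The 0-UMI cells as a whole held cells with S phase RNA.

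**Figure D2:**
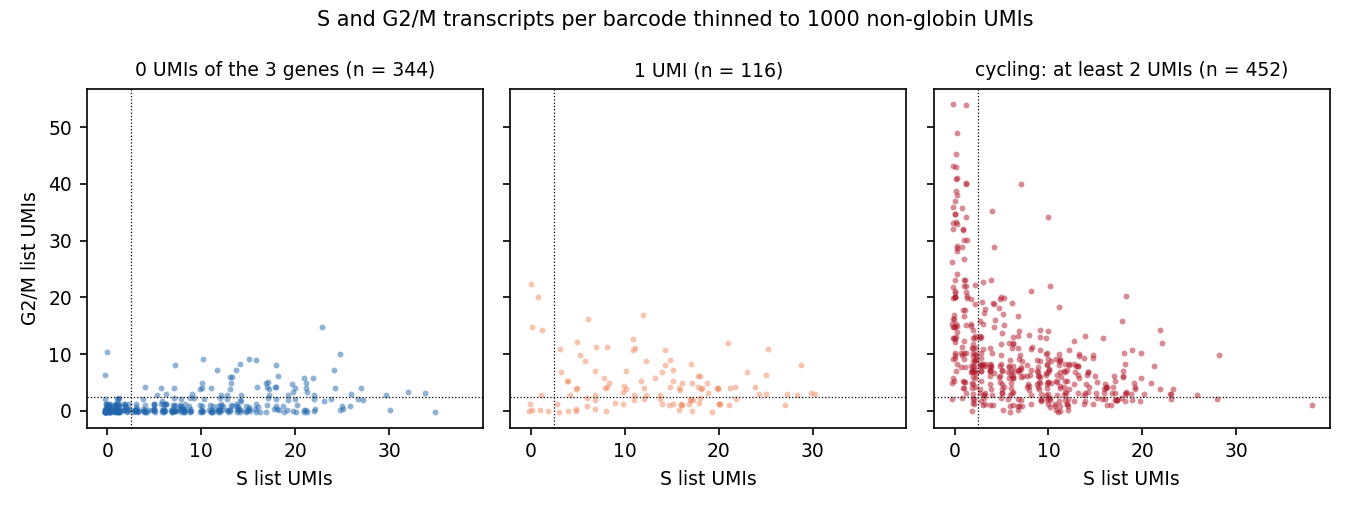
Points are barcodes thinned to 1000 non-globin UMIs, with UMIs of the S list on the horizontal and of the G2/M list on the vertical axis, in separate panels for erythroid cells with 0, 1 and at least 2 UMIs of mki67, top2a and cdk1 (points are spread slightly, and dotted lines mark 3 UMIs). Cycling cells form an arm with many G2/M and few S transcripts that is nearly empty in the 0-UMI panel, whereas both panels hold cells with many S transcripts.

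Chromatin and tubulin genes were the other list with many genes higher in cycling erythroblasts, with 17 of 33 at least 2-fold higher and a median log2 ratio of 1.01. Of these, 10 of 32 passed without the barcodes rich in neutrophil RNA. With all UMIs as the scale 8 of 33 passed (median 0.79), and with groups set after thinning 9 of 32 (0.74). The tubulin tuba8l was at 841 CPM against 118 (log2 2.84) and tubb4b at 2092 against 714 (1.55). The chromatin protein hmgb2a was at 6897 against 3026 (1.19, 1.14 to 1.24), and lamin B receptor (lbr) at 1071 against 415 (1.37).

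Cell cycle brakes and regulators were mixed. The phosphatase cdkn3 was at 119 against 27.1 CPM (log2 2.13), cdkn1a, the p21 inhibitor, at 52.2 against 25.4 (1.04, 0.44 to 1.68), and the Myc antagonist mxd3 at 201 against 54.2 (1.89). The antiproliferative gene btg1 was lower, at 67.6 against 140 (-1.05). Cyclin D1 (ccnd1), which links growth signals to the cycle, was nearly level at 309.8 against 306 (0.02, -0.17 to 0.21). Over the list of cyclins, CDKs and inhibitors 3 of 11 genes were higher and 1 lower, and over E2F, Myc and Myb factors 2 of 13 were higher. Without the barcodes rich in neutrophil RNA, 2 of 10 genes of the first list were higher and 0 lower. Of the second list 1 of 11 was then higher and 1 lower.

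Erythroid genes were mostly within 2-fold between cycling and 0-UMI cells. Of 13 heme synthesis genes 1 passed, ferrochelatase (fech), which inserts iron into protoporphyrin to form heme, at 88.6 against 27.1 CPM (log2 1.71, 1.16 to 2.30), while alas2, the first enzyme of the pathway in red cells, was at 2175 against 2265 (-0.06). The list's median log2 ratio was 0.43. Against the 69 cells that also lacked pcna and mcm UMIs, 8 of 13 heme genes were at least 2-fold higher, with a median of 1.58, as were 5 of 8 erythroid transcription factors, with a median of 1.05. Over all genes, 527 of 1856 were higher against these cells, with a median of 0.26. Barcodes rich in neutrophil RNA were not left out of the 69 cells, and what set these ratios was not tested. Genes reached the minimum count mostly through the cycling cells here too, so these ratios against the 69 cells say little beyond the selection. Against all 0-UMI cells, erythroid transcription factors had 0 of 10 past 2-fold and a median of 0.49, with gata1a at 276 against 162 (0.77, 0.53 to 1.02), klf1 at 510.1 against 348 (0.55), and myb, a factor of progenitors, at 75.3 against 137 (-0.87). The anion exchanger slc4a1a stood at 2882 against 2090.1 (0.46), and 0 of 14 genes for red cell membrane and carriers passed. Their median was 0.14, and it changed sign to -0.08 with all UMIs as the scale, a scaling that shifts every log2 ratio of this comparison by -0.23.

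Nucleolar genes were lower in cycling than in 0-UMI erythroid cells, by an amount near the 2-fold limit. All 11 measured genes had a ratio below 1, with a median log2 ratio of -0.79, and 2 passed 2-fold. With all UMIs as the scale 6 of 11 passed (median -1.01), as a mean over barcodes 8 of 11 (-1.09), and with groups set after thinning 9 of 11 (-1.52). Among cells with 20 to 60% globin 0 of 10 passed (-0.64), and with at least 40% globin 0 of 3 (-0.92). The 0-UMI cells had a lower median globin share, 48.1% against 60.4% in cycling cells. How much this adds to the nucleolar ratios was not tested. Nucleolin (ncl), which helps assemble ribosomes, was at 168 against 305 CPM (-0.86, -1.08 to -0.64), and fibrillarin (fbl), the methyltransferase of ribosomal RNA, at 52.2 against 108 (-1.04). Against the 69 cells that also lacked pcna and mcm UMIs, the median of the 7 nucleolar genes measured was 0.75, beside 0.26 over all genes, and what set this direction was not tested. This value has the same limit of selection and minimum count as the heme ratios against those cells. Cytosolic ribosomal protein genes were nearly level, with 0 of 78 past 2-fold and a median of -0.05. Of the 10 lowest genes outside these lists, the metallothionein mt2 had the lowest ratio, at 6.66 against 88.2 (-3.73, -4.68 to -2.89). Without the barcodes rich in neutrophil RNA, 33 of 1978 genes were at least 2-fold lower in place of 157 of 2559.

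**Figure D3:**
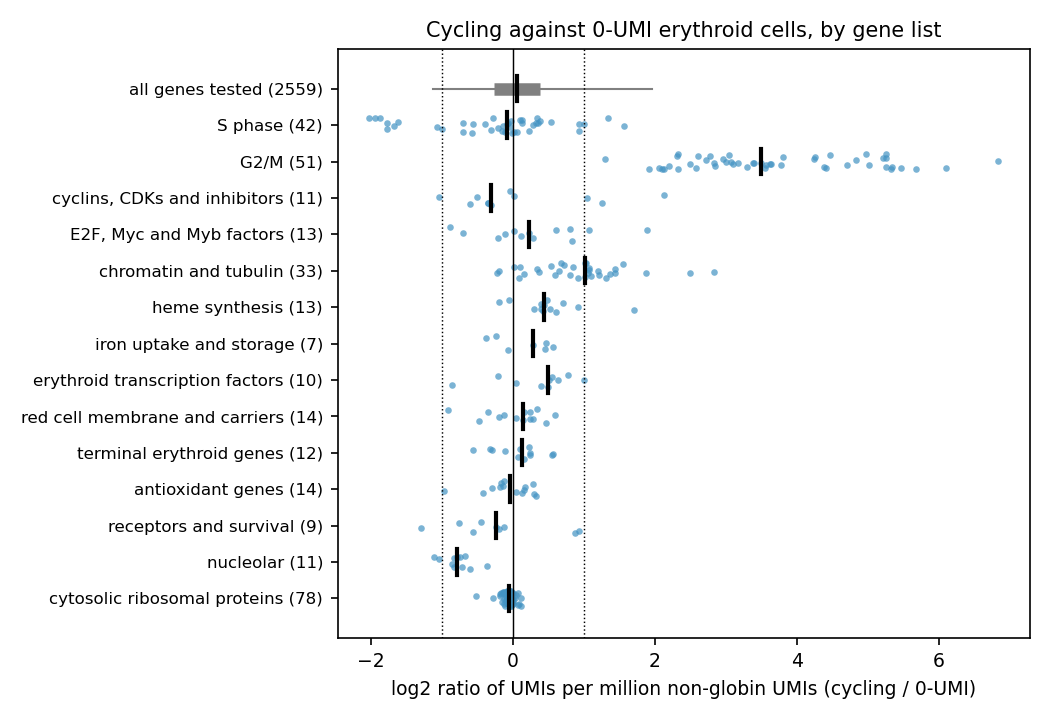
Each point is the log2 ratio of 1 gene's CPM (UMIs per 1000000 non-globin UMIs, summed over cells) in cycling over 0-UMI erythroid cells, by gene list, with the number of measured genes in parentheses. Black bars are medians, the grey bar of all genes spans the quartiles with lines to the 5th and 95th percentiles, and dotted lines mark 2-fold. The G2/M list stands apart with a median of 3.50, chromatin and tubulin genes follow at 1.01, and erythroid lists lie near 0.

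The share of erythroid barcodes that met the limit on the 3 genes was higher with more globin, and since the cells were chosen by both measures, this is a description. Of the 231 erythroid barcodes with 20 to 40% globin, 85 were cycling, as were 140 of 293 with 40 to 60% and 237 of 400 with 60 to 80%. Thinned to 1000 non-globin UMIs, the shares with at least 2 UMIs were 10.0% (6.47 to 14.7), 14.6% (10.8 to 19.3) and 39.5% (34.6 to 44.5). The share was highest in the top range at each thinning depth and UMI limit tried. Since globin sets the range and thinning is on non-globin UMIs, a share per cell and a share of the non-globin RNA cannot be told apart.

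Mitotic genes were higher per non-globin UMI in the cycling cells with more globin, where the rule itself asks for a higher level. Cycling cells with 20 to 40, 40 to 60 and 60 to 80% globin had medians of 7943, 4746 and 2100 non-globin UMIs. The limit of 2 UMIs of the 3 genes is thus a larger fraction of this RNA in the top range. How much this adds to the levels below was not tested. Between cells with 60 to 80% and with 20 to 40% globin, 271 of 1159 genes (23.4%) were at least 2-fold higher and 102 (8.8%) at least 2-fold lower in CPM, with a median log2 ratio of 0.34. Of 41 G2/M genes 39 were higher, with a median of 1.62. Cyclin B1 (ccnb1) was at 86.7, 146 and 281 CPM in the 3 ranges and plk1 at 92.3, 149 and 308. Helicase genes took the opposite course, with mcm5 at 149.7, 118 and 30.8 (log2 of the highest over the lowest range -2.28, -3.11 to -1.54) and mcm4 at 132.9, 115.3 and 61.6. So did mcm2 at 89.5, 105 and 19.9 and mcm3 at 79.7, 62.7 and 7.24, which are below the minimum of 100 UMIs over the highest and lowest range. The clamp pcna was about level at 1265, 1606 and 1240.1, and rrm1 was higher at 214, 389.5 and 453. Over 20 S phase genes the median was 0.54, with 3 higher and 2 lower. Scaled to all UMIs, each log2 ratio of this comparison shifts by -1.29, and then 7 genes were at least 2-fold higher and 553 lower. On that scale 0 of 41 G2/M genes passed 2-fold, with a median of 0.33, the median of the S list turned to -0.76 and rrm1 to -0.21.

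In the 0-UMI cells, S phase genes were higher per non-globin UMI with more globin. Their pcna stood at 1103, 1707 and 2089.5 CPM in the 3 ranges of globin and their mcm5 at 299, 367 and 423. Non-globin RNA is a smaller share of all UMIs in the higher ranges. Levels with all UMIs as the scale are not given for these cells. Barcodes rich in neutrophil RNA, 88 of the 346, were not left out of these levels, and how much they add was not tested. Among the cycling cells as counted, more UMIs of the G2/M than of the S list were found in 44.7% (33.9 to 55.9) at 20 to 40% globin, in 40% (31.8 to 48.6) at 40 to 60% and in 61.6% (55.1 to 67.8) at 60 to 80%. The interval of the top range overlapped that of the lowest. As cells of 1 library are not replicates, these intervals are no test of a difference between ranges. Cycling cells of the top range had fewer non-globin UMIs, so the rule itself asked for a higher level of its mitotic genes there. How much this adds to the share of the top range was not tested.

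Red cell genes were also higher with globin content among the cycling cells, measured against the other non-globin RNA. Carbonic anhydrase (cahz) was at 3202, 6197 and 9736 CPM in the 3 ranges, the anion exchanger slc4a1a at 1594, 2636 and 4854 and hemogen (hemgn) at 2109.7, 3768 and 6539. Of 9 genes for membrane and carriers 7 were at least 2-fold higher in the highest range, with a median log2 ratio of 1.37. With all UMIs as the scale 0 of 9 passed, with a median of 0.08, and the median of 6 erythroid transcription factors was -0.48 in place of 0.81. Heme genes were uneven: alas2 was at 1016, 2247 and 3586 (log2 1.82, 1.70 to 1.95) and fech at 47.6, 91.9 and 138, but coproporphyrinogen oxidase (cpox) was at 477, 516 and 375 (-0.35, -0.60 to -0.09). Over the 10 heme genes the median was 0.59, and it was -0.70 with all UMIs as the scale. The transcription factor gene klf1 was at 279.8, 496 and 826 and gata1a at 172, 261 and 429. The survival kinase pim2, at 43.4, 81.7 and 168, and bcl2l10, at 56.0, 96.3 and 152, were higher too.

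Genes of the nucleolus and of Myc were lower in the cycling cells with more globin under each scaling tried. Nucleophosmin (npm1a) was at 319, 58.4 and 38.0 CPM (log2 -3.07, -3.79 to -2.42), ncl at 283, 121 and 77.8, and the helicase ddx21 at 297, 143 and 77.8. All 4 measured nucleolar genes were at least 2-fold lower, with a median of -1.90, and of -2.07 without the barcodes rich in neutrophil RNA. The Myc family gene myca gave 40, 18 and 2 UMIs, or 56.0, 26.3 and 3.62 CPM, which is below the minimum of 100 UMIs over the highest and lowest range. Its relative mych was at 136, 83.2 and 43.5 (-1.64). The Myc antagonists went the other way in CPM, with mxi1 at 70.0, 137 and 205 (1.55, 1.06 to 2.06) and mxd3 at 89.5, 206 and 339 (1.92). All UMIs as the scale shifts these log2 ratios by -1.29, which leaves both antagonists within 2-fold. Ribosomal protein genes had a median of -0.41 over 76 genes, 2 of them at least 2-fold lower.

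**Figure D4:**
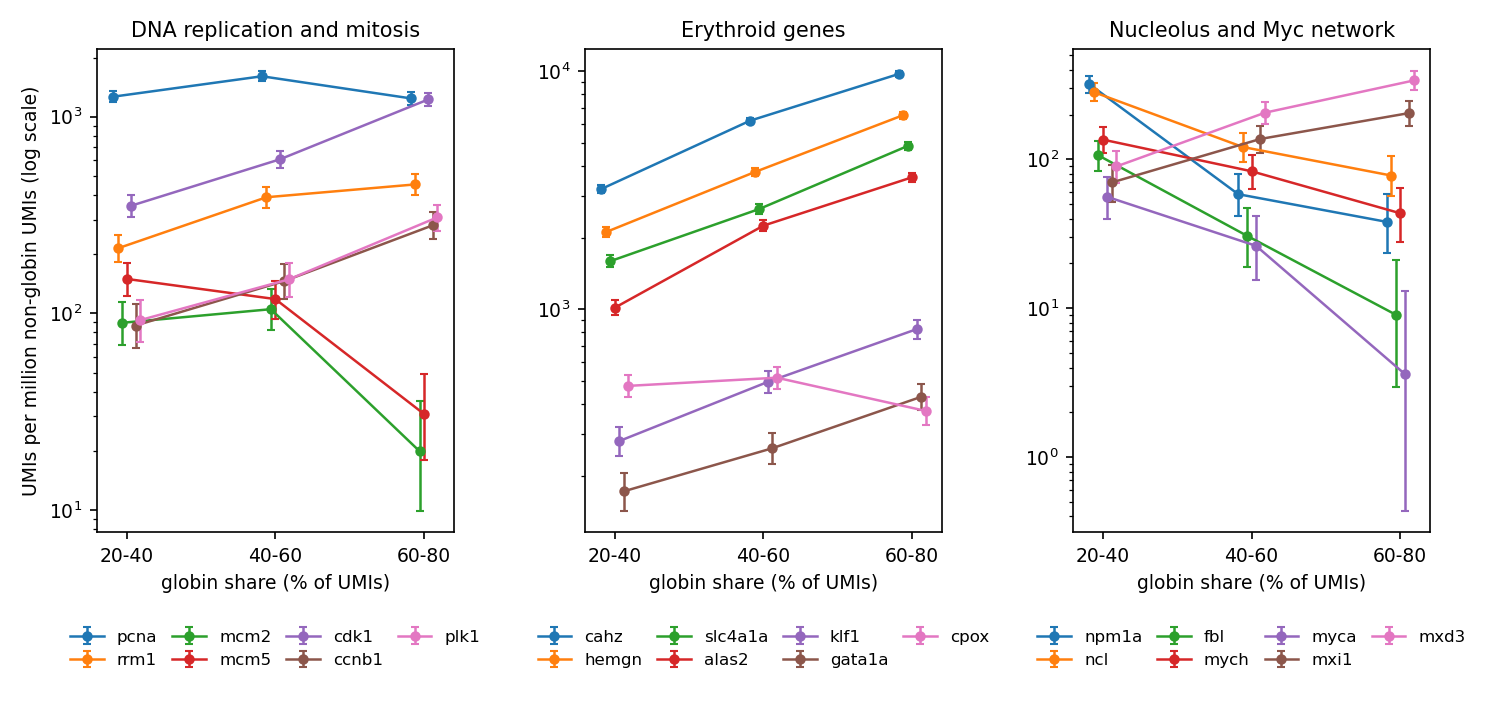
CPM (UMIs per 1000000 non-globin UMIs, log scale) in cycling erythroblasts with 20 to 40, 40 to 60 and 60 to 80% globin (85, 140 and 237 cells), summed over the cells of each range, with exact Poisson 95% intervals for counting error. The mcm genes, npm1a, ncl, fbl, mych and myca are lowest in the highest range, while ccnb1, plk1, alas2, slc4a1a, mxi1 and mxd3 are highest there.

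Neutrophil genes moved with globin content as well. Lysozyme (lyz) was at 17237, 6330.0 and 978 CPM in the 3 ranges, and 18, 24 and 5 of the cycling cells in them had over 1% neutrophil RNA. Without those cells its log2 ratio of the highest over the lowest range turned from -4.14 to 1.36, and that of npsn from -3.26 to 0.55. Genes that kept a low ratio without them included the fatty acid binding proteins fabp11a, at 190.3, 56.9 and 7.24 (-4.72, and -5.44 without them), and fabp3, at 211, 33.6 and 10.9 (-4.28 and -4.12), and the keratin krt18b, at 167, 40.9 and 7.24 (-4.52 and -4.55). These 3 genes were highest in the cycling cells with the least globin, with and without the barcodes rich in neutrophil RNA. Among the 15 lowest genes, spink2.5 (-3.58 without them), lgals2a (-3.55), npm1a (-3.25), grn1 (-2.98), lygl1 (-2.87), lcp1 (-2.20) and cfd (-2.16) stayed low too. Besides lyz and npsn, those that did not were si:ch1073-429i10.1 (1.18), cpa5 (0.77) and ch25hl2 (0.04). Which cells gave the remaining RNA was not tested.

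The cycling cells were also ordered by the list that led in each, a split chosen after seeing the data that marks ranges of a continuous balance and not cell types. More S than G2/M UMIs were counted in 218 cells and more G2/M than S in 240, with 4 ties, and depth was near equal at medians of 9386 and 9140 UMIs. Median globin was 55.6% in the S-led and 64.6% in the G2/M-led cells. How much the rule adds to this difference was not tested. Outside both lists, 1612 genes were compared, of which 85 (5.27%) were at least 2-fold higher and 53 (3.29%) at least 2-fold lower in the G2/M-led cells, with a median log2 ratio of 0.07. The spindle pole gene aspm was at 607 CPM in G2/M-led and 15.6 in S-led cells (log2 5.28, 4.55 to 6.13), tuba8l at 1284 and 394 (1.71), and cdkn3 at 206 and 31.2 (2.72). Stathmin (stmn1a), which destabilizes microtubules, was lower at 214 and 1013 (-2.24), as was cdkn1a (-1.09).

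The erythroid regulator gata1a followed the balance of both lists within each range of globin content. Gata1a, the master transcription factor of the lineage, was at 371 CPM in G2/M-led and 177 in S-led cells (log2 1.07, 0.80 to 1.34), and it was higher in each range of globin, with log2 ratios of 0.96 at 20 to 40%, 0.93 at 40 to 60% and 1.0 at 60 to 80%. It was 1.1 without the barcodes rich in neutrophil RNA, and scaling to all UMIs shifts the log2 ratios of this split by -0.22. Other erythroid genes were closer, with slc4a1a at 0.32, 0.31 and 0.31 in the 3 ranges, klf1 at 0.26, 0.19 and 0.40 and alas2 at 0.24, -0.01 and 0.07. The hematopoietic factor tal1 was in the other direction, at -0.44, -0.59 and -0.55. As gata1a was singled out after its values were seen, these ratios are a description.

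Other cycling marrow cells gave a comparison under the same limit on the 3 genes, in which cycling erythroblasts had higher levels of erythroid genes and lower levels of nucleolar genes. Of these 685 other cells, 387 (56.5%) had over 1% neutrophil RNA, with a median of 7.55% over the group. The comparison is thus mostly with barcodes rich in neutrophil RNA, and not with cycling marrow cells in general. Of 5206 genes, 618 (11.9%) were at least 2-fold higher and 1315 (25.3%) at least 2-fold lower in CPM, with a median log2 ratio of -0.15. Levels of the 3 genes differed, with cdk1 at 689 against 387 CPM, top2a at 213 against 277 and mki67 at 507 against 482. This comparison shares its cycling erythroblasts with the one above, and scaling to all UMIs shifts every log2 ratio by -1.22, which left 156 genes higher and 3382 lower. G2/M genes were near level, with 4 of 55 higher, 1 lower and a median of 0.36, but 20 of 54 were higher, with a median of 0.85, when barcodes rich in neutrophil RNA were left out of both groups, and 0 were higher and 18 of 55 lower, with a median of -0.86, with all UMIs as the scale. S phase genes were higher, with 13 of 46 at least 2-fold and a median of 0.80, which turned to -0.42 with all UMIs as the scale. The reductase gene rrm1 stood at 343 against 121 CPM (1.503, 1.35 to 1.65), tk1 at 47.6 against 9.53 (2.32), and geminin (gmnn), which blocks a repeat of replication, at 54.8 against 14.9 (1.88).

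Regulators of the cell cycle differed between both kinds of cycling cells. The cyclin D1 gene ccnd1 was at 309.8 CPM in cycling erythroblasts and 41.0 in other cycling cells (log2 2.92, 2.71 to 3.13), while ccnd2a was at 15.9 and 68.7 (-2.11). Cyclin E2 (ccne2) was at 33.3 and 10.1 (1.72). Of 16 E2F, Myc and Myb factors 7 were higher and 2 lower, with e2f7, a repressor of E2F targets, at 47.6 and 8.45 (2.50), the E2F partner tfdp1a at 80.4 and 17.98 (2.16), mxi1 at 132 and 17.7 (2.90), and mxd4 at 34.3 and 9.68 (1.83). In contrast, myca was lower at 30.7 and 158 (-2.36, -2.76 to -1.99), and mycb at 17.4 and 47.5 (-1.45). With all UMIs as the scale, ccnd1, e2f7 and mxi1 still had log2 ratios above 1, while ccne2, tfdp1a and mxd4 were within 2-fold. Of the 16 E2F, Myc and Myb factors 2 were then higher and 4 lower, with a median of -0.50 in place of 0.72.

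Nucleolar genes were lower than in other cycling cells, with 22 of 26 at least 2-fold lower and a median of -1.57. The level of npm1a was 148 against 564 CPM (-1.93), fbl at 52.2 against 178 (-1.76) and mrto4, a factor of large subunit assembly, at 2.56 against 20.3 (-2.99, -4.63 to -1.73). Of 79 cytosolic ribosomal protein genes 2 were at least 2-fold lower, with a median of 0.29, and of -0.93 with all UMIs as the scale.

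Genes of heme and erythroid transcription mostly had high ratios, in cells that the rule chose by globin, and genes of iron were mixed. Heme synthesis genes were at least 2-fold higher in 12 of 13, with a median of 3.51, from abcb10 at 198 against 41.6 CPM (2.25) to alas2 at 2175 against 53.2 (5.35, 5.20 to 5.52). The exception was alas1, the housekeeping form of the first enzyme, at 45.6 against 64.5 (-0.50, -0.85 to -0.17). Of 10 iron genes 6 were higher and 2 lower, with a median of 1.16. With all UMIs as the scale 4 were higher and 3 lower, with a median of -0.066. Transferrin receptor tfr1a, which brings in iron, was at 159 against 10.9 (3.87), its relative tfr1b at 6.15 against 22.4 (-1.87), and the ferritin gene fth1a at 7040 against 749 (3.23). Of 12 erythroid transcription factors 10 were higher, with a median of 2.12, among them klf1 at 510.1 against 27.7 (4.21), klf17 at 244 against 18.6 (3.72) and gata1a at 276 against 23.2 (3.57). With all UMIs as the scale 5 of 12 were higher and 1 lower, with a median of 0.90. Without the barcodes rich in neutrophil RNA 8 of 10 were higher and 1 lower, with a median of 1.44. The progenitor factor myb was at 75.3 against 141 (-0.90).

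Red cell membrane genes were higher in 10 of 13, with a median of 4.42, and the peroxidase genes split by member. The carbonic anhydrase cahz stood at 6102 against 137 CPM (5.48), and the skeleton proteins epb41b and tmod4 at 1451 against 54.1 (4.75) and 590.5 against 20.4 (4.85). Tropomyosin tpm3 was lower at 134 against 371 (-1.47). Of antioxidant genes, prdx2 was at 8701 against 1289 (2.76, 2.72 to 2.79) and gpx1a at 3041 against 1011 (1.59), whereas prdx1 was at 57.4 against 299 (-2.38), prdx6 at 80.4 against 292 (-1.86) and thioredoxin (txn) at 41.0 against 252 (-2.62). The highest ratio of all belonged to si:ch211-103n10.5 (ENSDARG00000077504), at 18225.5 against 239 (6.25, 6.18 to 6.33), which within the cycling erythroblasts stood at 9703.5, 19020.6 and 28266 in the 3 ranges of globin. It was followed by the muscle-type phosphofructokinase pfkma at 98.3 against 1.54 (6.0) and s100a10a at 116 against 2.00 (5.86). The lowest belonged to moxd1, with 1 UMI against 235 (-6.14, -11.45 to -3.65), and the myeloid factor irf8 was at 1.54 against 30.7 (-4.32).

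**Figure D5:**
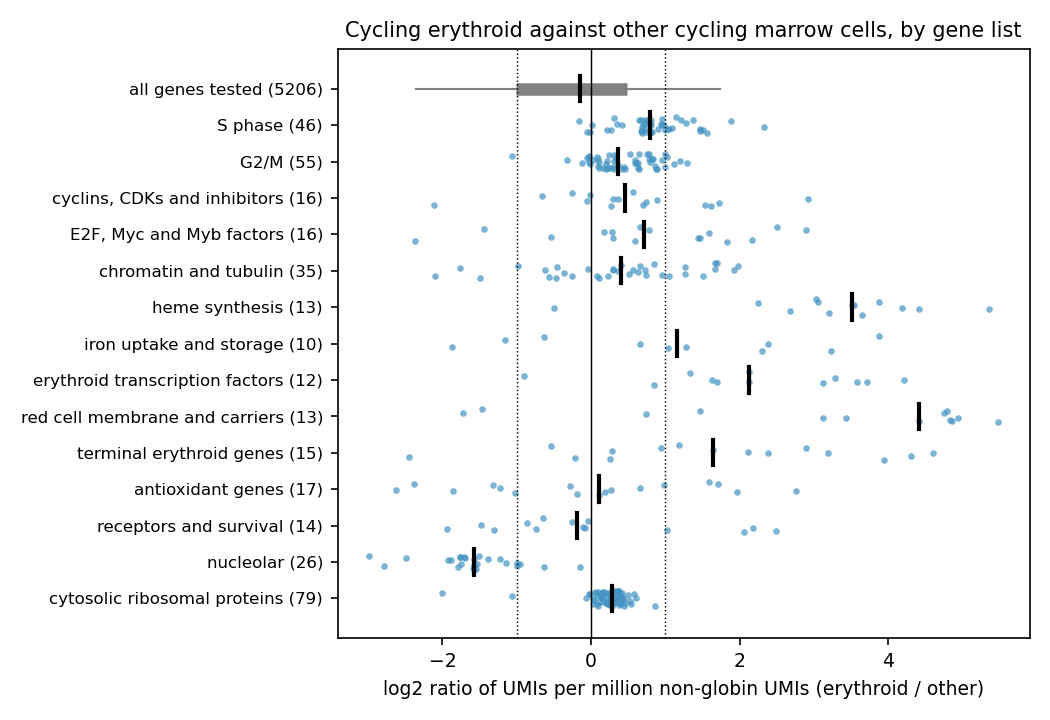
Each point is the log2 ratio of 1 gene's CPM (UMIs per 1000000 non-globin UMIs, summed over cells) in 462 cycling erythroblasts over 685 other cycling marrow cells, by gene list, with the number of measured genes in parentheses. Black bars are medians, the grey bar of all genes spans the quartiles with lines to the 5th and 95th percentiles, and dotted lines mark 2-fold. Heme synthesis (median 3.51) and membrane genes (4.42) are far to the right, the nucleolar list (-1.57) is to the left, and G2/M genes (0.36) are near level.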

How the data were processed

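Per the labels and the study's methods, the authors sequenced droplet-based 3′-end libraries, and aligned them with Cell Ranger 3.1.0 to GRCz11 extended by the Citrine and CFPNTR sequences. The authors deposited unnormalized UMI counts, which cover 25109 features in the barcodes called as cells. Symbols were taken from the feature list, in which 514 stand for more than 1 identifier, and no sequence or coordinate was used.

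Counts were summed per group and scaled to 1000000 non-globin UMIs (1952648 non-globin UMIs in the cycling erythroblasts, 1179868 in the 0-UMI cells and 6508344 in other cycling marrow cells), with Python 3.11.15, numpy 2.4.6, scipy 1.17.1, pandas 2.3.3 and Scrublet in scanpy 1.11.5 (expected rate 10%). Ratios carry exact Clopper-Pearson and levels exact Poisson 95% intervals, which cover counting error only, and a group at 0 was set to 3 UMIs. UMIs of a barcode were drawn without replacement for thinning. The code was tested on simulated data. Named genes are the markers, members of gene lists written from textbook roles, and the 10 highest and lowest ratios of both comparisons, plus genes described as singled out and those with the highest and lowest ratios by globin range. Cells and lists were chosen with earlier results of these data known.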

Additional observations from a re-analysis of the deposited data

How the results depend on the processing

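No paired analysis was possible because barcodes were not assigned to the 2 fish here and each group was 1 sample, so no replicate could be left out either. In cycling against 0-UMI erythroid cells, 226 of 2559 genes were at least 2-fold higher and 157 lower. These counts were 85 and 65 of 755 after thinning to 1000 non-globin UMIs, where fewer genes reached 100 UMIs. They were 639 and 613 of 6680 with a minimum of 20 UMIs, and 1168 and 2660 of 12762 with no minimum. Higher genes numbered 137 of 1935 (7.08%) at 20 to 60% globin, 118 of 765 (15.4%) at 60% or more and 527 of 1856 (28.4%) against cells without pcna and mcm UMIs, beside 8.83% of 2559. Lower genes numbered 237 of 2559 with all UMIs as the scale and 251 of 2559 as a mean over barcodes, beside 6.14% of 2559. They numbered 33 of 1978 without barcodes rich in neutrophil RNA, 22 of 765 at 60% globin or more and 279 of 1856 against cells without pcna and mcm UMIs. Against those cells, whose mcm UMIs are 0 by selection, log2 ratios at the floor of 3 UMIs were at least 2.02 for mcm2, 1.52 for mcm3, 2.52 for mcm4, 2.50 for mcm5, 1.61 for mcm6 and 1.18 for hells (also at 0), and turned to 0.75 for fbl and -0.28 for ccng2. Against other cycling marrow, 156 genes were higher and 3382 lower with all UMIs as the scale, and the iron list turned to -0.066, rrm2 to -0.18 and pim2 to -0.20. Between the highest and lowest globin range, 7 of 1159 were higher and 553 lower with all UMIs, and 145 and 159 of 1159 with median-of-ratios scaling. Without barcodes rich in neutrophil RNA, 54 of 977 were lower, in place of 102 of 1159. All UMIs as the scale turned rrm1 to -0.21, rrm2 to -0.10, bub3 to -0.089, znfl2a to -0.28, gpx1a to -0.26, tuba8l to -0.22 and tubb4b to -0.055. Leaving out the barcodes rich in neutrophil RNA turned lyz to 1.36, si:ch1073-429i10.1 to 1.18, ch25hl2 to 0.040, npsn to 0.55 and cpa5 to 0.77.

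The cycling shares at 20 to 40, 40 to 60 and 60 to 80% globin were 36.8%, 47.8% and 59.3% as counted, 21.8%, 37.6% and 60.5% with at least 1 UMI, 3.06%, 6.97% and 21.8% with at least 3, 3.90%, 6.49% and 19.0% at 500 UMIs, and 22.9%, 35.8% and 61.4% at 2000. At least 3 S and 3 G2/M UMIs were found in 87.9% and 99.6% of cycling and in 74.0% and 32.7% of 0-UMI cells as counted, and at 500 UMIs in 53.7%, 64.3%, 54.1% and 4.62%. Without barcodes rich in neutrophil RNA the 0-UMI shares were 79.7% and 20.7%. The cause of these moves was not tested, apart from those that the change of minimum, depth or scale gives by construction. The comparisons against cells without pcna and mcm UMIs, the scalings by globin range and the neutrophil limit for the shares and globin ranges were chosen after seeing the data. Differences between the 2 fish were not separated here from differences between cells.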
